A study of Oncorhynchus kisutch with 206 samples.

Results

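The account below concerns 150 array probes read in the brain of coho salmon. Their mean signal was lower in ocean fall and winter than in every earlier life stage. They were picked out of 43630 probes on the array, of which 10942 had a value in every fish. For each of these complete probes the values were averaged per life stage, and a gap was taken as the lowest of the parr, smolt, spring and summer means minus the higher of the fall and winter means. The gap was above 0 for 2696 probes and exceeded the range of the 4 earlier means for 462 of them. The 150 with the largest gap are the members. Stage means therefore chose them, so the step between summer and fall is a description here and carries no test. Each probe is known only by its place on the array, with C for the column and R for the row. Without a pairing of these places with genes, no gene, pathway or cell type is given for any of them.

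Coho salmon (Oncorhynchus kisutch) hatch and grow in rivers as parr and turn into smolts, which leave for the sea in a change of physiology that prepares gill, kidney and hormone systems for salt water. In their first year at sea they feed and grow quickly, from coastal waters in spring and summer to larger fish in fall and winter. The brain senses day length and temperature and steers growth, feeding and, later, maturation through the pituitary, while it also goes on growing and adding nerve cells, as fish brains do throughout life.

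Each array held the brain RNA of 1 fish, labelled with Alexa 555, against a pool of all brain samples labelled with Alexa 647. No array had its dyes exchanged. The fish were 5 parr from the Chilliwack river (2008, all hatchery), 51 smolts from the Chilliwack (2008, 16 fish) and from the Capilano, Chehalis, Puntledge and Salmon rivers (2009), 12 ocean fish of spring (south Strait of Georgia, 2009), 51 of summer, 78 of fall and 9 of winter (2009). Fall fish were caught off the west coast of Vancouver Island (7 in 2009, 17 in 2008) and in the Strait of Georgia (43 in 2009, 11 in 2008). The Strait fall fish of 2008 were all from its northern-mid part, while those of 2009 were 21 northern-mid and 22 south fish. Summer fish came from the west coast (8, all 2009) and the Strait (35 in 2009, 8 in 2008). Hatchery and wild fish were present among smolts and in summer, fall and winter, while all spring fish were wild. Of the 9 winter fish 3 were from the northern-mid Strait and 6 from the west coast. The labels also give each fish a stock region, and stocks went with place. Of the 24 west coast fall fish 15 were of Columbia, Oregon, Puget_Sound or Washington stock and 5 of Fraser, ECVI or S_Main stock, against 0 and 48 of the 54 Strait fall fish. In summer these numbers were 7 and 0 of 8 west coast fish, against 0 and 43 of 43 Strait fish. In bulk brain tissue, fewer cells of a type and less RNA per cell cannot be told apart.

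Values are log ratios that are likely log2 of fish over pool. That reading rests on the values: read so, the back-transformed values averaged near the pool (class medians 0.06 to 0.17 on a log2 scale), whereas read as pool over fish they ran from -0.02 to 1.10. A natural log is not excluded, and pool over fish would turn every sign below. Of the pairs of arrays, 1.12% correlated below -0.3 (lowest -0.49); the dyes are given by the labels, so the direction was kept. Arrays differed in spread (SD 0.51 to 1.61) and in their share of empty values (16.6% to 57.6%).

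Taken by their median, the members lay near the pool up to summer and below it afterwards. Means of single members were spread widely around that median. They ran from -1.46 to 1.06 in parr, -1.16 to 1.05 in smolts, -1.15 to 1.36 in spring and -1.58 to 0.93 in summer. In fall they ran from -2.33 to 0.13 and in winter from -2.50 to 0.21. The median of their stage means was 0.13 in parr, 0.13 in smolts, 0.35 in spring and -0.01 in summer, against -0.79 in fall and -0.90 in winter. The number of members with a mean below 0 was 61 in parr, 55 in smolts, 33 in spring, 76 in summer, 149 in fall and 145 in winter. Summer was the lowest of the 4 earlier stages for 101 members, parr for 29, smolts for 18 and spring for 2, so the summer mean most often set the upper edge of the gap. Fall was the higher of the late stages for 93 members and winter for 57. Over all complete probes the median stage mean moved little, at -0.06 in fall, -0.06 in summer and -0.11 in winter.

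Gaps ran from 0.53 to 1.60 with a median of 0.65. At the limit of the choice, the last members inside were C033R050 with a gap of 0.537 and C183R003 with 0.535, while the first probes outside were C055R079 with 0.532 and C062R098 with 0.530. The list thus ends within a continuous run of values. The members were scattered over the array (columns 2 to 257 of 266, rows 1 to 170), and 6 of them lay next to another member. With the array cut once by column and once by row, each of the 4 parts held 22.7% to 28.7% of the members and 23.2% to 27.0% of all complete probes.

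C043R150 had the largest gap, 1.60. Its lowest, median and highest values were -3.95, -2.05 and 0.11 in the 78 fall fish, against -1.82, -0.41 and 1.74 in the 51 summer fish. The means were -1.94 ± 0.91 (SD, n = 78) in fall and -0.34 ± 0.85 (n = 51) in summer, and 75 of 78 fall fish were under the summer mean. The 5 parr had 0.41, 0.73, 1.14, 1.22 and 1.81, and every one of the 9 winter fish was below 0, from -3.47 to -0.73. Although the 2 ocean stages overlap at their ends, the bulk of the fall fish sits below the bulk of the summer fish.

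C139R012 came next with a gap of 1.21, and its values were spread quite differently. In fall it ran from -5.88 through a median of -1.37 to 2.83, against -5.11, 0.38 and 2.53 in summer. The means were -1.57 ± 2.22 (SD, n = 78) in fall and -0.29 ± 2.09 (n = 51) in summer. In fall 47 of 78 fish were under the summer mean. In each stage some fish had values below -4 and others above 1. Of the 5 parr, 3 had 1.10, 1.55 and 1.84, and the others had -1.24 and -4.08. The 9 winter fish split in the same way, with a median of 0.43 and a lowest value of -5.21.

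These 2 probes stand for 2 kinds of member. Within stages, most members moved together from fish to fish. The median correlation between pairs of members was 0.57 within stages, where pairs of complete probes had 0.02, and the first axis of the members took up 71.0% of their within-stage variance, against 33.8% for all complete probes. The correlation of a member with the mean of the others was over 0.6 for 122 members, 0.4 to 0.6 for 9 and under 0.4 for 19, limits that were set after the values were seen. It was 0.92 for C139R012 and -0.14 for C043R150. These correlations describe fish that share slides and arrays, and the members were chosen on the same values.

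Among the 122 members that moved together, the median within-stage SD was 1.14 and the median difference, fall minus summer, was -0.76. The 19 others had a smaller SD of 0.69 and a difference of -0.65. The median number of fall fish under the summer mean was 57.5 of 78 for the first kind and 67 of 78 for the second. C183R003, the last member inside the limit, belongs to the 19, with -0.19 ± 0.75 (SD, n = 78) in fall and 0.55 ± 0.71 (n = 51) in summer. C033R050 belongs to the 122, with -1.02 ± 1.09 (n = 78) in fall and -0.46 ± 1.14 (n = 51) in summer.

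The mean of the members in each fish makes the low tail visible. It ran from -2.97 to 1.05 over all fish. The stage medians were 0.60 in parr, 0.44 in smolts, 0.53 in spring, 0.32 in summer, -0.72 in fall and -0.08 in winter. A value below -1 was reached by 1 of 5 parr, 6 of 51 smolts, 1 of 12 spring fish, 7 of 51 summer fish, 31 of 78 fall fish and 3 of 9 winter fish. Low fish were thus present at every stage and, with the years pooled, most frequent in fall. In 2008 this order did not hold. Of that year, 5 of 16 smolts and 5 of 8 Strait summer fish were below -1. Among its fall fish it was 1 of 11 in the Strait and 5 of 17 on the west coast. In 2009 it was 2 of 35 summer and 23 of 43 fall fish in the Strait. On the west coast of 2009 it was 0 of 8 summer and 2 of 7 fall fish. Winter held 3 fish at -2.74, -2.63 and -2.39, and 5 fish between -0.08 and 0.33, with 1 fish in between at -0.93, so its stage mean of -0.92 describes few fish.

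This mean followed measures of the whole array. Over all fish it correlated at 0.94 with the first component of the other complete probes, which held 31.3% of their variance, at -0.64 with the SD of the array, at -0.51 with the share of empty values and at -0.82 with the mean of the control rows that one deposited table lists. Within fall the values were 0.96, -0.72, -0.44 and -0.81 (n = 78), and within summer 0.97, -0.72, -0.52 and -0.84 (n = 51). These are Pearson correlations. By rank (Spearman) the fall values were 0.96, -0.64, -0.47 and -0.79, and the summer values 0.84, -0.25, -0.45 and -0.72, so in summer the relation to the array SD was much weaker by rank than the Pearson value. Each pair of measures comes from the same array. The control rows themselves were higher in fall than in summer in 17 of 17 cases (median difference 0.22). The part of these array measures in the step was not tested.

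The size of the difference between fall and summer depended on how these measures entered. The 2 kinds of member were cut by their correlation with the other members, whose mean follows the first component, so a larger shift of the 122 under that term follows from the cut and is no separate result. Its median over all members was -0.74, with all 150 lower in fall. It was -0.61 with the array SD as a term (150 lower) and -0.40 with the first component as a term (148 lower and 2 higher). Within the 15 slides that held both stages (23 fall and 21 summer fish) it was -0.52, with 149 lower. For the 122 members that moved together the median was -0.36 with the first component as a term and -0.49 within slides. For the 19 others it was -0.64 and -0.83, and all 19 stayed lower in fall. C043R150 had -1.67 with the component as a term and -1.78 within slides, where C139R012 had -0.36 and -0.24.

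Taking body length into account moved the medians of the 2 kinds in opposite directions, though not every member. With length as a term 17 of the 19 members came nearer to 0 and 2 moved away, against 44 nearer and 78 farther among the 122. Fork length averaged 25.1 ± 3.33 cm (SD, n = 78) in fall and 17.6 ± 2.29 cm (n = 51) in summer. With fork length as a term the median difference was -0.24 for the 19 members and -0.88 for the 122. In fish of the lengths that both stages share, 16 to 24.1 cm (30 fall and 40 summer fish), it was -0.37 for the 19 and -0.86 for the 122. C043R150 had -0.87 with length as a term and -1.03 at shared lengths. C105R111, whose correlation with the other members was -0.16, had -0.09 with length as a term and -0.73 without it.

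Length could also be tested inside fall, with place and year as terms (limma, adjusted over all tested probes, as in every test below). The choice of members used no lengths, but it read the fall means, and fall fish were longer than summer fish. Probes that fall with length may thus be favoured by the choice, so the direction and share of these calls are not free of it. Of the 150 members 3 fell with length, while 0.167% of 36428 probes were called, 0.0769% as falling, and 0.356% of complete probes. C043R150 fell by 0.15 per cm (SE 0.03, adjusted p = 0.002). In the 19 longest fall fish, of 26.8 to 32.8 cm, it averaged -2.32 ± 0.60 (SD, n = 19), against -1.53 ± 1.02 (n = 19) in the 19 shortest, of 16 to 23.2 cm. C105R111 fell by 0.11 per cm (SE 0.02, adjusted p = 5.8e-04), with -1.11 ± 0.48 (n = 19) in the longest and -0.37 ± 0.62 (n = 19) in the shortest fish. Unlike the slopes, these averages of the longest and shortest fish pool places and years. The third, C113R141 (-0.07 per cm, SE 0.02, adjusted p = 0.0379), is named after its value was seen. All 3 are among the 19 members that did not follow the others. With slide as a fixed term only C043R150 kept its call (adjusted p = 0.0204), and C105R111 had -0.10 per cm (adjusted p = 0.322).

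No member was called for length in summer or in smolts, where limma called 0 of 36382 and 0 of 35845 probes (0% each). At an unadjusted p under 0.05 there were 12 members in summer and 11 in smolts. In summer C043R150 averaged -0.57 ± 0.63 (SD, n = 12) in the longest fish, of 19.1 to 24.1 cm, and -0.32 ± 0.76 (n = 12) in the shortest, of 12.1 to 16.4 cm. Places and years are pooled in these averages too.

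The fall difference itself varied between years in the Strait of Georgia. In 2009 (43 fall and 35 summer fish) its median over the members was -1.11 with all 150 lower in fall. The parts of the Strait were mixed unlike in these 2 stages. In the northern-mid part (21 fall and 29 summer fish) the median was -1.14, with 150 lower. In the south (22 fall and 6 summer fish) it was -0.63, with 146 lower and 4 higher. In 2008 (11 fall and 8 summer fish) the median for the whole Strait was 0.59, with 35 members lower and 115 higher in fall. The members' mean had its lowest, median and highest value at -2.97, -1.10 and 0.35 in fall of 2009, against -1.87, 0.32 and 0.71 in summer of 2009. It stood at -1.45, -0.11 and 0.17 in fall of 2008, against -2.49, -1.33 and 0.73 in summer of 2008. The summer fish of 2008 fell into 5 low fish, from -2.49 to -1.09, and 3 high ones, from 0.43 to 0.73. Their arrays were also wide and sparse, with a median SD of 0.96 and 40.96% of values empty, against 0.71 and 30.7% in the Strait summer fish of 2009. The part of these measures in the difference was not tested apart from the terms below.

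A test of this difference between years reads the same fall and summer values that chose the members, and 50 of the 78 fall and 43 of the 51 summer fish behind the pooled means were of 2009. A larger difference in 2009 may thus be built into the choice, so the counts and fitted values that follow are a description from which nothing is read. The fit called 107 of the 150 members, 106 with a lower and 1 with a higher value of fall minus summer in 2009 than in 2008. Among all 28454 tested probes 33.8% were called (18% lower and 15.8% higher), and 34.4% among complete probes. C160R170 differed by -5.74 (SE 1.16). Its lowest, median and highest values were -6.28, -1.80 and 1.76 in fall 2009 against -5.85, 1.49 and 3.44 in summer 2009, and -3.68, 0.72 and 1.28 in fall 2008 against -6.73, -5.49 and 1.82 in summer 2008. C139R012 differed by -4.80 (SE 0.94). Both follow the common axis, with correlations of 0.93 and 0.92 to the other members.

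Among the members 12 had a fitted value above 0, and C043R150 was the 1 of them that was called, with 1.43 (SE 0.41). Its fall values were below its summer values by less in 2009 than in 2008. It had -3.72, -2.15 and -0.42 in fall 2009 against -1.82, -0.70 and 1.74 in summer 2009. In 2008 it had -3.71, -2.65 and -1.19 in fall against -0.60, 0.09 and 1.58 in summer, so the fall and summer fish of that year did not overlap. Of the 122 members that moved together 103 were called, of the 9 intermediate ones 3, and of the 19 others 1. For these 19 the median difference between fall and summer was -0.69 in 2009 and -0.80 in 2008, and each was lower in fall in both years. Of the 122, all were lower in fall in 2009, while 111 were higher in 2008.

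The count changed with the array measures. It was 20 with the array SD as a term, against 4.58% of all probes. It was 0 with the first component as a term (14 unadjusted), against 0.299% of all probes, and the median difference over the members was then 0.15, so the direction turned. With slide as a fixed term it was 0 (4 unadjusted), against 0% of 24798 probes, and 6 of 49 slides held both years. Calls were thus lost over the whole array and not among the members alone. Leaving out any single one of the 8 summer fish of 2008 left 91 to 123 calls, against 25.6% to 42.3% of all probes.

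The contrasts between years within a stage are not free of the choice either, since the pooled means lean on fish of 2009. Within summer, in Strait fish, 63 members were called, 61 higher and 2 lower in 2009, against 15.4% of 29370 probes (8.36% higher and 7.06% lower) and 18.9% of complete probes. C160R170 had -5.85, 1.49 and 3.44 in summer 2009 against -6.73, -5.49 and 1.82 in summer 2008, a difference of 3.98 (SE 0.91, adjusted p = 0.00207 by limma). C177R005 had -2.64, 0.58 and 1.67 against -6.95, -2.75 and 1.22, a difference of 3.19 (SE 0.62, adjusted p = 4.5e-04). In both probes 5 of the 8 fish of 2008 were below -2 and the others above 0. The 2 members that were lower in 2009 belong to the 19. C099R165 averaged -0.28 ± 0.59 (SD, n = 35) in 2009 and 0.51 ± 0.50 (n = 8) in 2008 (difference -0.82, SE 0.23, adjusted p = 0.011). C083R152 averaged -0.25 ± 0.61 (n = 35) in 2009 and 0.51 ± 0.29 (n = 8) in 2008 (difference -0.77, SE 0.22, adjusted p = 0.014), and all 8 fish of 2008 were above 0 for it. The count was 3, all lower in 2009, with the array SD as a term, against 2.06% of all probes, while the median difference over the members was still above 0, at 0.09. It was 6, of which 4 were lower, with the first component as a term, against 2.52% of all probes, where the median difference over the members was -0.13, against 0.91 without that term, so the direction turned. It was 0 with slide as a fixed term (6 unadjusted, median difference 0.06), against 0% of 25341 probes, and 2 of 27 slides held both years. Without summer fish 552 of 2008 it was 35, against 8.04% of all probes.

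Between the years within fall, with coast as a term, 10 members were called, all lower in 2009, against 8.54% of 34684 probes (2.8% lower) and 12.3% of complete probes. C219R055 had -3.06, -1.10 and -0.21 in fall 2009 (n = 50) against -1.99, -0.38 and 0.36 in fall 2008 (n = 28), a difference of -0.81 (SE 0.17, adjusted p = 0.00311 by limma). C223R061 had -3.46, -1.005 and 0.17 in 2009 against -1.45, -0.60 and 0.60 in 2008, a difference of -0.73 (SE 0.19, adjusted p = 0.00993). The year groups overlap widely in both probes. In Strait fish alone 88 members were called lower, against 25.2% of probes. The Strait fall fish of 2008 were all northern-mid, so year was mixed with place in that fit. In northern-mid Strait fish alone 52 members were called (51 lower and 1 higher), against 19.0% of probes. In west coast fish alone the count was 0 (median difference 0.04, 7 fish of 2009 and 17 of 2008). With the first component as a term 2 members were called, both higher in 2009, against 0.721% of all probes, and the median over the members was 0.03, against -0.57 without that term. With slide as a fixed term 0 were called (22 unadjusted), against 0% of 30491 probes. Only 6 of 36 slides, with 18 of the 78 fish, held both years. The median difference over the members was then -0.64 with 146 of 150 below 0, and C223R061 had -0.82. Most members moved together from fish to fish, so that count is not one of independent members. With stock region as a term 8 members were called, all lower in 2009, against 4.18% of all probes.

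In fall, 31 of the 150 members were called lower in hatchery than in wild fish, a call that 0 members kept with slide as a fixed term, the array SD or the first component as a term. The members' mean had its lowest, median and highest value at -2.97, -1.32 and -0.11 in 31 hatchery fish, against -2.97, -0.35 and 0.73 in 47 wild fish, and 19 of the hatchery fish and 12 of the wild fish were below -1. The 31 calls, all lower in hatchery fish, came from the fit with place and year as terms, against 1.63% of 34221 probes (1.05% lower) and 2.84% of complete probes. The choice of members read the fall means of these same fish. It may thus favour probes that were low in part of them, so the larger share among the members is not free of the choice. C160R170 had -7.08, -2.24 and 1.76 in hatchery fish against -5.88, 0.50 and 2.56 in wild fish, a difference of -1.91 (SE 0.53, adjusted p = 0.0455 by limma). C216R137 had -6.55, -1.86 and 0.56 against -6.14, -0.05 and 2.60, a difference of -1.60 (SE 0.43, adjusted p = 0.0375).

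By place and year, the hatchery and wild averages of the members' mean were -1.85 (n = 5) and -0.08 (n = 12) on the west coast in 2008, -0.55 (n = 4) and -0.08 (n = 7) in the northern-mid Strait in 2008, -1.19 (n = 11) and -0.81 (n = 10) in the northern-mid Strait in 2009, and -1.30 (n = 10) and -1.23 (n = 12) in the south Strait in 2009. On the west coast in 2009 the 1 hatchery fish had -1.83 and the 6 wild fish averaged -0.31. Hatchery fish averaged lower in each of these places, by most on the west coast and by least in the south Strait. Array measures differed with origin too, with median control rows of 0.64 in hatchery and 0.38 in wild fall fish and 39.5% and 34.3% of values empty. With slide as a fixed term, on 13 slides with both origins, 0 members were called (35 unadjusted), against 0% of 30767 probes, while the median difference over the members was -0.44, against -0.52 without that term, and 144 of 150 were below 0. With the array SD as a term 0 were called (71 unadjusted, median -0.35), against 0% of 34127 probes. With the first component as a term 0 were called (38 unadjusted, median -0.10), against 0.00293% of 34127 probes. With stock region as a term 1 member was called, against 0.0686% of 33533 probes, and the median was -0.49. Of the 31 called members 30 are among the 122 that moved together.

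Hatchery and wild fish were not shown to differ in summer or among smolts. Limma called 0 members in each, against 0% of 34282 and 0% of 33709 probes. At an unadjusted p under 0.05 there were 2 members in summer and 25 in smolts. The fit for smolts had river as a term. Chehalis and Puntledge smolts were all hatchery and Salmon smolts all wild, so it compared origins only within the Chilliwack and the Capilano. It put all but 17 of the 150 members higher in hatchery fish, with a median difference of 0.52. That is opposite in sign to the fall median of -0.52. The smolt median was 0.69 with slide as a fixed term and 0.31 with the array SD as a term. With the first component as a term it was 0.04, with 85 members above 0 and 65 below. The members' mean had medians of 0.36 in hatchery and 0.29 in wild fish in summer. In smolts the medians were 0.44 in hatchery and 0.41 in wild fish, over all rivers and so over more fish than the fit compared. The difference between stages was not tested.

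Between the coasts no member was called in fall (0 of 150 by limma, 10 at an unadjusted p under 0.05), although 7.89% of 34605 probes were. The members' mean had its lowest, median and highest value at -2.79, -0.28 and 0.73 in 24 west coast fish, against -2.97, -0.89 and 0.35 in 54 Strait fish, with year as a term in the test. In 2009 alone 7 members were called, all higher on the west coast, against 9.71% of all probes, and in 2008 alone 2, both lower there, against 2.04%. With the array SD as a term 17 (11.3%) were called higher on the west coast, against 18.0% of all probes called in either direction. With the first component as a term 13 (8.67%) were called lower, against 9.95% of all probes. Called in either direction, all probes had larger shares than the members in these fits. In the members' own direction all probes had the smaller shares. Higher on the west coast were 2622 of 34605 probes with the array SD as a term and 995 of 29076 in 2009 alone. Lower there were 2314 of 34605 with the first component as a term and 370 of 30971 in 2008 alone. The members are all complete probes, and complete probes called in either direction had larger shares than the members. These were 32.6% with the array SD as a term, 17.5% with the first component, 15.9% in 2009 alone and 3.42% in 2008 alone. In the first fit, with year as a term, it was 15.9%. The shares of complete probes were not split by direction. The members' calls went both ways between these fits, and no direction for the coasts is drawn from them. With stock region as a term 1 member was called, against 2.44% of all probes, and the median difference over the members was 0.40, against 0.10 without it. The part of stock in contrasts other than coast, year and origin in fall was not tested. In summer of 2009 0 members were called between the coasts (24 unadjusted), against 0.0242% of 33111 probes. The members' mean was 0.03 to 0.84 in 8 west coast fish, with a median of 0.46, and -1.87 to 0.71 with a median of 0.32 in 35 Strait fish. The fall minus summer difference was not shown to differ between the coasts in 2009 (0 members by limma, 3 unadjusted, against 0.059% of 28813 probes). Its median over the members was -0.92 on the west coast (7 fall and 8 summer fish) and -1.11 in the Strait.

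The remaining contrasts within a stage called no member. Between the northern-mid and the south Strait in fall 2009 (21 and 22 fish), limma called 0 members (3 unadjusted) and 0% of 31913 probes. The medians of the members' mean were -0.96 in the northern-mid and -1.45 in the south Strait. Between males and females in fall (36 and 41 fish) it called 0 members (1 unadjusted) and 0% of 35271 probes, with medians of -0.88 in males and -0.63 in females. Among the smolts of 4 rivers in 2009 (35 fish) it called 0 members (14 unadjusted) and 0.00346% of 28864 probes. There the medians were 0.41 in the Capilano, 0.47 in the Chehalis, 0.51 in the Puntledge and 0.50 in the Salmon river.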

How the data were processed

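Per the labels' protocols, brain RNA was amplified and dye-coupled, 1 fish per array, against the pool. The deposited values are taken as log2 ratios; how they were normalized, and why some are empty, is not stated there. A second deposited table, whose columns name no unit (treated as other), held the same values plus 18 control rows. Members, classes and lists were chosen with earlier results of these data known. Stage, year, place, origin, sex and length come from the labels, fish number is the replicate, and slide (61 slides, 1 to 4 arrays each) comes from the array position; 1 fish had unlike slide names in its labels. Tests used limma 3.58.1 in R 4.3.3 with slide as a random block, over probes with 3 or more values per side (6 for a slope), without the empty values, and Benjamini-Hochberg adjustment at 0.05 over all tested probes. The step and the stage means got no test. Named probes are the 2 largest gaps, the 2 on each side of the limit, and per test at most 2 called members in each direction by size. The fits were tried on simulated data with the real empty values and slides. Probes varied independently of each other there, so the trial does not cover the axis that most members share. Alternatives were slide as a fixed term or absent, quantile normalization, complete probes only, single years or places and other forms of the choosing rule. After seeing the data, array SD or the first component as a term, stock region as a term, northern-mid fish alone and leaving out summer fish of 2008 were added. The number of arrays limits the precision.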

Additional observations from a re-analysis of the deposited data

Results flagged for a closer look

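The fitted interaction term, fall minus summer in the Strait of Georgia in 2009 against 2008, was called for 107 of the 150 members. Among all 28454 tested probes 33.8% were called, and 34.4% among complete probes. The term was -5.74 for C160R170, -4.80 for C139R012 and 1.43 for C043R150. Each was past the threshold with slide as a random block and not with slide as a fixed term or with the first component as a term. The fitted term of C043R150 was nonetheless 2.53 with slide fixed and 1.47 with the component, while C160R170 had -3.08 and -0.40 and C139R012 had -2.19 and -0.42. The members were chosen on pooled fall and summer means that lean on fish of 2009, so nothing is read from these values. Among the 21 sets of 4 to 10 fish that were checked for a fish standing apart, counting the members' mean and named probes, 0 were found, where chance gives about 5%.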

How the results depend on the processing

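Counts of called members moved with how the array entered the fit, and so did the share of all tested probes that was called, given here in brackets. With slide as a fixed term they were 2 for coast in fall (3.10%), 1 for length in fall (0.0127%), and 0 for year in fall, year in summer, origin in fall and the step by year (0% each, with 22, 6, 35 and 4 members at an unadjusted p under 0.05); few slides held both sides of the year contrasts. Without a slide term they were 25 for year in fall (15.4%), 6 for length in fall (0.483%) and 54 for origin in fall (3.91%). Quantile normalization gave 4 for coast in fall (8.79%), 23 for year in fall (12.7%), 33 for year in summer (7.02%) and 20 for origin in fall (0.701%). Complete probes alone gave 2 for coast in fall (21.1%), 18 for year in fall (16.3%), 6 for length in fall (1.20%) and 53 for origin in fall (6.08%). With the array SD as a term there were 17 for coast in fall (18.0%), 5 for year in fall (4.68%), 3 for year in summer (2.06%; all lower, though the members' median stayed above 0), 6 for length in fall (0.548%), 0 for origin in fall (0%) and 20 for the step by year (4.58%). With the first component as a term there were 13 for coast in fall (9.95%), 2 for year in fall (0.721%) and 6 for year in summer (2.52%), both with the members' median turned, 9 for length in fall (1.13%), 0 for origin in fall (0.00293%) and 0 for the step by year (0.299%). With stock region as a term there was 1 for coast in fall (2.44%) and 1 for origin in fall (0.0686%). Coast in fall gave 2 in 2008 (2.04%) and 7 in 2009 (9.71%). Year in fall gave 88 in the Strait (25.2%), 52 in the northern-mid Strait (19.0%) and 0 on the west coast (0%), and origin in fall gave 74 without place and year terms (9.40%). Leaving out each summer fish of 2008 in turn gave 35 to 90 calls for year in summer (8.04% to 23.9%) and 91 to 123 for the step by year (25.6% to 42.3%). The cause of these shifts was not tested.

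The list itself also depends on the rule. Of the 150 members, 147 were chosen again with arrays centred on their medians, 107 with each array divided by its SD, 101 after quantile normalization, 99 with ocean fish of 2009 alone, 86 with fall in place of the higher late stage, 73 without west coast fish, 59 with the first component regressed out and 55 with stage medians. Without 1 parr in turn 91 to 121 were chosen again. By stage medians 128 of the 150 members had a gap above 0. C043R150 was not chosen after quantile normalization, with stage medians or with 2009 alone. Where a named probe was called, no refit changed the sign of its difference, and 35 refits lost the call, 12 of them with slide as a fixed term, while 120 kept it. Uncalled differences of the 2 probes with the largest gaps did change sign; C139R012 had -1.04 for coast in fall with slide fixed, against 0.25 without. No paired analysis was possible because each fish number occurs once and pairs no fish between groups.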
